A study of Drosophila melanogaster with 8 samples.

Results

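Binding of the transcription factor Deadpan (Dpn) was examined at the genes of the mitochondrial ribosome and of the respiratory chain. Members were the protein-coding genes of the Release 6 annotation of Drosophila melanogaster whose symbol starts with mRpL, mRpS, ND-, UQCR- or COX followed by a digit, which gave 141 of 13962 genes. COX1, COX2 and COX3 are encoded on the mitochondrial genome, where neither peak list has a peak, and were not analysed further. The other 138 members are nuclear genes on the autosomes and the X chromosome. They comprise 47 genes of the large mitoribosomal subunit (mRpL), 26 of the small mitoribosomal subunit (mRpS), 40 of complex I (ND-), 9 of complex III (UQCR-) and 16 of complex IV (COX). The rule used symbols only and no binding values.

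Dpn is a basic helix-loop-helix protein of the Hes type that is expressed in neuroblasts (NBs), the neural stem cells of the fly brain. Its binding was measured by DamID, in which the methylase Dam marks GATC sites near the protein under study, in brains of 3rd instar larvae. For medulla NBs, NanoDam brought Dam to a GFP-tagged Dpn under its own control (Dpn-GFP) and w1118 larvae without the tagged protein served as the control, with eyR16F10-GAL4 as driver in both (named ey-GAL4 in the sample labels). For all NBs (pan-NB), a Dam-Dpn fusion was compared with Dam alone, both driven by wor-GAL4. Larvae of all 4 groups carried tub-GAL80ts and were moved from 18°C to 29°C to start Dam expression. Each group had 2 replicates, of 40 brains for NanoDam and 30 brains for the fusion. The authors averaged the replicates, and each comparison is 1 list of peaks, so no spread between replicates can be given and no test over samples is possible. The medulla NB list held 3474 peaks and the pan-NB list 4282 peaks on these chromosomes. The lists differ both in technique and in the cells profiled, which cannot be told apart, and the driver of the medulla NB list is described by the study as active in medulla neurons as well. The lists hold no reads and no expression values, so the depth behind a peak is unknown and the labelled cell type could not be checked against its markers.

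The mitochondrial ribosome translates the few proteins that the mitochondrial genome encodes, all of them subunits of the oxidative phosphorylation complexes. Complex I takes electrons from NADH, complex III passes them from ubiquinol to cytochrome c, and complex IV, cytochrome c oxidase, hands them to oxygen. Nearly all subunits of these machines are made from nuclear genes, imported and assembled with the mitochondrially encoded ones. In larval NBs, oxidative phosphorylation is known to be needed for normal proliferation, and loss of complex I function slows their cell cycle and delays temporal patterning. Many duplicated respiratory chain genes of the fly, marked by a final L in the symbol, are known for expression in the testis.

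Most members had no Dpn peak within 1 kb, the distance the study used to link peaks to genes; a gene with such a peak is called bound here. A medulla NB peak was found at 32 of 138 members (23.2%), against 23.1% of all 13922 protein-coding genes on these chromosomes. A pan-NB peak was found at 40 members (29%), against 26.7% of all protein-coding genes. Both lists had a peak at 23 members (16.7%), where the share of all protein-coding genes was 16.5%. The medulla NB list alone had a peak at 9 members, against 6.62% of all protein-coding genes, and the pan-NB list alone at 17 members, against 10.2%. Neither list had a peak at 89 members (64.5%), against 66.7% of all protein-coding genes. Taken over all 138 members, these shares lay close to those of protein-coding genes of any length. Members are short genes, and among genes no longer than their median length, 14 of 69 members had a medulla NB peak (20.3%, against 11.8% of all protein-coding genes of that length) and 22 had a pan-NB peak (31.9%, against 14.1%). Of members with a medulla NB peak, 71.9% also had a pan-NB peak, against 71.4% for all protein-coding genes, and of members with a pan-NB peak, 57.5% also had a medulla NB peak, against 61.8%. The count of members bound in both lists was 12 with an FDR below 0.001 (8.7%, against 10.7% of all protein-coding genes) and 48 with a distance of 5 kb (34.8%, against 29.6%).

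**Figure D1:**
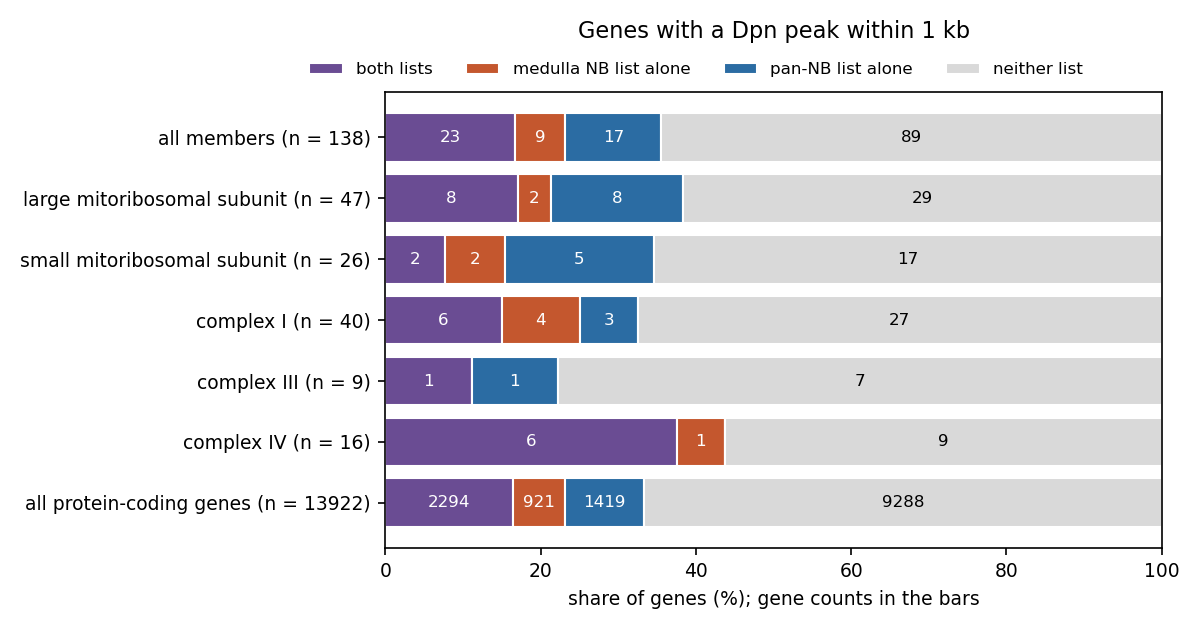
Share of genes (x axis, %) with a Dpn peak within 1 kb in both lists, in 1 list alone or in neither, for the 138 members, each complex, and all 13922 protein-coding genes (rows), with gene counts printed in the bars. The bar of all members resembles that of all protein-coding genes, and complex IV has the widest share bound in both lists (6 of 16 genes).

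The shares bound were also counted by complex. Over all protein-coding genes they were 23.1% in the medulla NB list and 26.7% in the pan-NB list. Complex IV had the highest share, with a medulla NB peak at 7 of 16 genes (43.8%) and a pan-NB peak at 6 (37.5%). Of these, COX7C and COX7CL lie side by side and share 1 peak in each list, so 7 genes stand for fewer separate sites. Complex I had a medulla NB peak at 10 of 40 genes (25%) and a pan-NB peak at 9 (22.5%). Complex III had a medulla NB peak at 1 of 9 genes and a pan-NB peak at 2. In the large mitoribosomal subunit, 10 of 47 genes (21.3%) had a medulla NB peak and 16 (34%) had a pan-NB peak. In the small subunit, 4 of 26 genes (15.4%) had a medulla NB peak and 7 (26.9%) had a pan-NB peak. Over the whole mitoribosome, 4 genes were bound in the medulla NB list alone and 13 in the pan-NB list alone, whereas over the respiratory chain the counts were 5 and 4. Over all protein-coding genes they were 921 and 1419. Genes are not replicates, and these counts carry no test.

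In complex IV, all 6 genes with a pan-NB peak also had a medulla NB peak. COX7C, which encodes a small nuclear-encoded subunit of the oxidase, had a medulla NB peak on 2R from 10047942 to 10050746 and a pan-NB peak from 10046906 to 10049840. The medulla NB peak covered the whole gene and the pan-NB peak 1488 bp of it, and both lay within 1 kb of oys. The medulla NB peak had a score of 4.73 and rank 1404 in its list, and the pan-NB peak had a score of 4.22 and rank 1976. Scores are the authors' own, have no stated scale and are not comparable between the lists, so each peak is also placed by its percentile, the percentage of the other peaks in its list with a lower score. For COX7C this was 59.6 in the medulla NB list and 53.7 in the pan-NB list. The neighbour COX7CL, a duplicate of COX7C, was reached by the same peaks, with 399 bp of the medulla NB peak on the gene itself and the pan-NB peak ending 507 bp away.

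COX8, another small subunit, had overlapping peaks in both lists on 3L, from 21539157 to 21540339 in the medulla NB list (percentile 51.1) and from 21538373 to 21539920 in the pan-NB list (percentile 57.5). The medulla NB peak had 291 bp on COX8 and its midpoint lay nearest to VhaM9.7-b. COX5A, whose loss in the eye disc of the fly blocks entry into S phase, had 1 peak with the same ends in both lists, from 11819483 to 11819937 on 3R. This 455 bp peak lay wholly inside the gene. Its rank was low in both lists, at percentile 28.0 in the medulla NB list and 16.9 in the pan-NB list. COX6B, a subunit on the side of the intermembrane space, had a peak inside the gene on the X chromosome, from 19743010 to 19743931 in the medulla NB list and from 19743010 to 19744203 in the pan-NB list. Both lay in the lower part of their lists, at percentiles 29.6 and 25.5. COX7AL2 had 1 peak in each list that did not overlap the other. Its medulla NB peak ran from 2197045 to 2198461 on 2L (percentile 55.0) and its pan-NB peak from 2195138 to 2195802 (percentile 55.4), and no other protein-coding gene lay within 1 kb of either peak. COX7A, the subunit that COX7AL2 duplicates, had a medulla NB peak alone, from 8339952 to 8341812 on 3R (percentile 20.1), with 1092 bp on the gene. COX4 and COX5B, subunits of the mature oxidase, and the duplicates COX4L and COX5BL had no peak in either list, and the peak nearest to COX4 lay 21858 bp away.

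**Figure D2:**
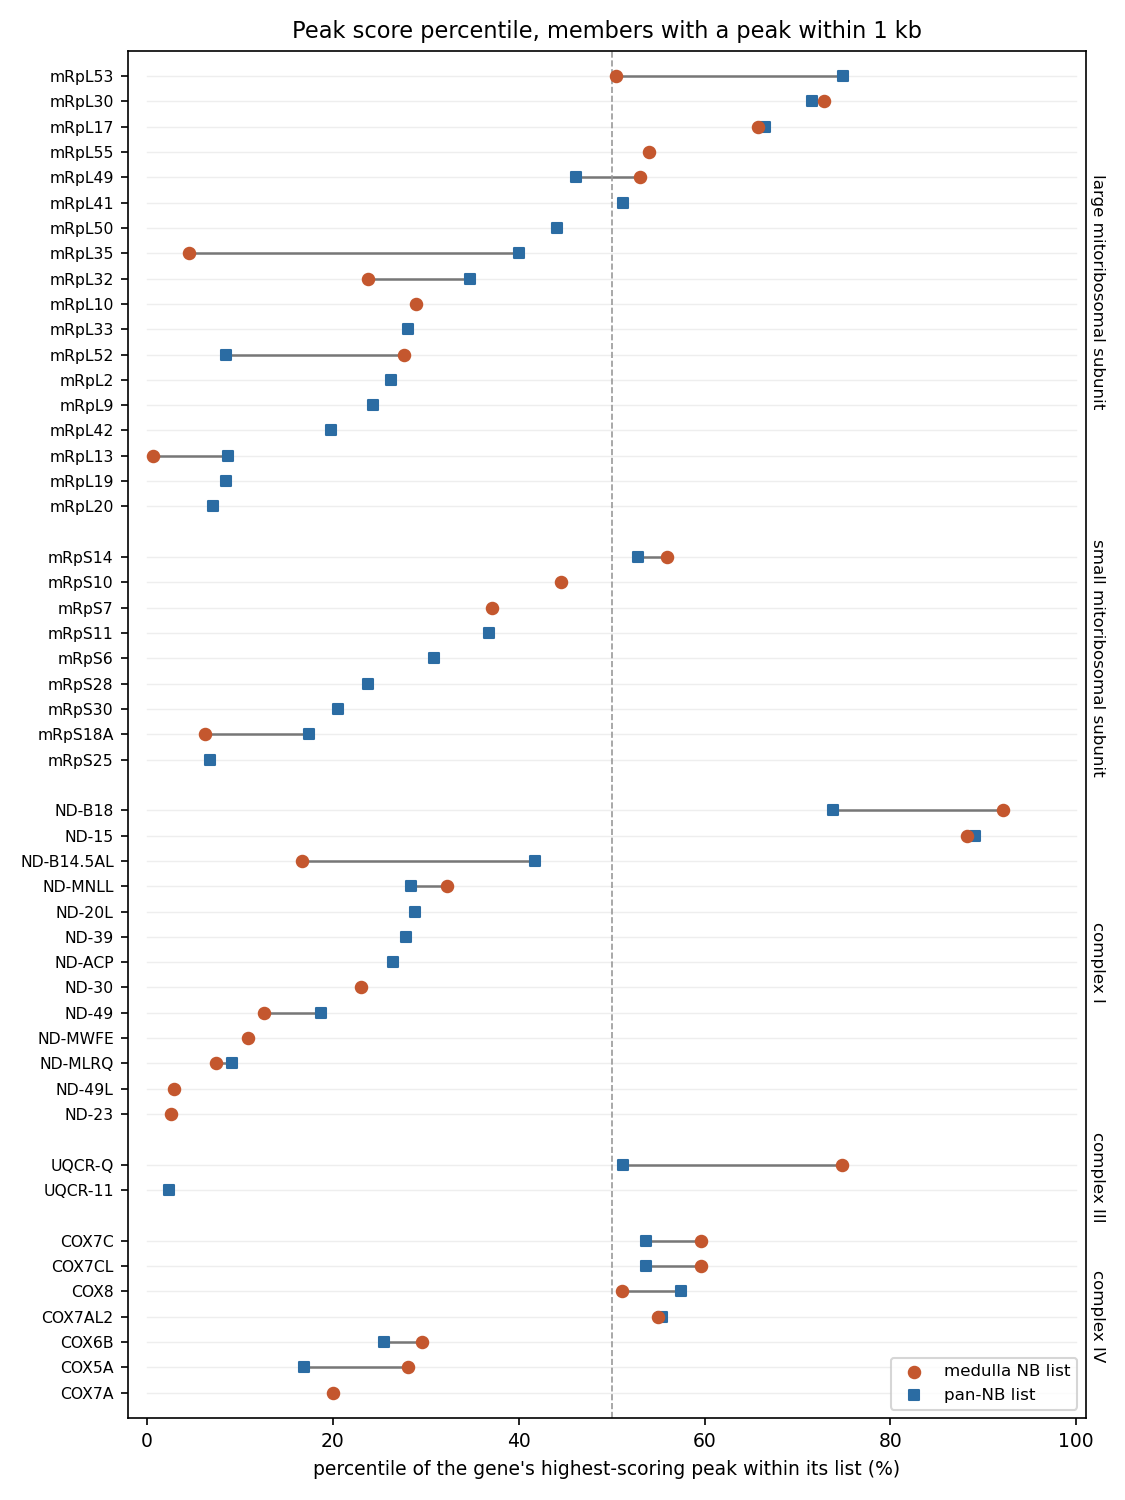
Percentile of the highest-scoring peak within 1 kb (x axis, %; the percentage of other peaks in the same list with a lower score) for the 49 members with a peak in either list (y axis), as circles for the medulla NB list and squares for the pan-NB list, with a line joining both where a member has both. Most points lie left of the dashed line at 50, and ND-15 and ND-B18 stand furthest to the right.

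In complex III, UQCR-Q, a small accessory subunit, was the 1 gene bound in both lists. Its medulla NB peak ran from 17475671 to 17476480 on 3L and had rank 874 (percentile 74.8). The pan-NB peak there was wider, from 17475435 to 17477316, with rank 2085 (percentile 51.2). The midpoint of the medulla NB peak lay inside UQCR-Q, whereas that of the pan-NB peak lay nearer to CG34250. UQCR-11 had a pan-NB peak alone, near the bottom of the list at percentile 2.34. UQCR-C1 and UQCR-C2, the core proteins, had none, nor had UQCR-11L, UQCR-14, UQCR-14L and UQCR-6.4. The nearest peak to UQCR-C1 lay 66143 bp away in the pan-NB list.

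In complex I, the accessory subunit genes ND-15 and ND-B18 had the highest-ranking peaks. In the medulla NB list they ranked highest of all members, while in the pan-NB list mRpL53 lay between them. The annotated span of ND-15 is 41305 bp, the longest among the members, and 12 other protein-coding genes lie within it or within 1 kb of it. It had 2 medulla NB peaks and 3 pan-NB peaks on 2L. The highest ran from 128081 to 129499 in the medulla NB list (score 8.36, rank 408, percentile 88.3) and from 128081 to 129233 in the pan-NB list (score 6.75, rank 464, percentile 89.1), and its midpoint lay in CG3164 as well as in the span of ND-15. ND-B18 had 1 peak with the same ends in both lists, from 15062561 to 15063723 on the X chromosome. It had rank 270 in the medulla NB list (percentile 92.1) and rank 1115 in the pan-NB list (percentile 73.9). This peak ended 9 bp from ND-B18, but its midpoint lay nearest to hiw, which encodes a ubiquitin ligase of synapse growth. The next highest percentile in complex I was 41.8, at ND-B14.5AL in the pan-NB list.

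Complex I has a core of subunits conserved from bacteria, which hold the flavin and the iron-sulphur clusters on the matrix side. Of 7 nuclear-encoded core subunits, a grouping made after the values were seen, 1 was bound in both lists, 2 in the medulla NB list alone and 4 in neither. ND-49, which helps form the ubiquinone site, is the 1 member on chromosome 4. Its medulla NB peak ran from 570617 to 572612 (percentile 12.6), and its pan-NB peak from 572330 to 572901 (percentile 18.7) lay 775 bp from the gene, nearer to Ephrin. ND-30 had a medulla NB peak from 3158840 to 3160747 on 3L (percentile 23.0), and ND-23 had one from 15833522 to 15836449 on 3R (percentile 2.62). Both peaks had midpoints nearer to another gene, CG15812 at ND-30 and Arpc3A at ND-23. ND-75, ND-51, ND-24 and ND-20 had no peak in either list. The peak nearest to ND-75, which carries several of the iron-sulphur clusters, lay 5549 bp away, and ND-20 had none within 31149 bp.

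Among the accessory subunits of complex I, ND-MLRQ, ND-MNLL and the duplicate ND-B14.5AL were bound in both lists. The peaks of ND-MLRQ lay nearest to alpha-Cat, which encodes alpha-catenin, 771 bp from ND-MLRQ in the medulla NB list and 793 bp away in the pan-NB list, at percentiles 7.46 and 9.16. At ND-MNLL the medulla NB peak from 7891415 to 7892350 on the X chromosome lay nearest to Nek2, a mitotic kinase gene, and the pan-NB peak from 7892049 to 7893331 reached into ND-MNLL itself. Their percentiles were 32.3 and 28.5. ND-B14.5AL was covered by a 3115 bp medulla NB peak (percentile 16.6) and overlapped in part by a 1310 bp pan-NB peak (percentile 41.8). ND-MWFE and ND-49L had a medulla NB peak alone, at percentiles 10.9 and 2.91. ND-ACP, the acyl carrier protein, ND-39 and ND-20L had a pan-NB peak alone, at percentiles 26.5, 27.8 and 28.8. ND-42 had a peak in neither list, and examples of the other unbound genes are ND-13A, ND-13B, ND-18 and ND-19.

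Of 17 duplicates with the suffix L in complexes I, III and IV, 4 had a medulla NB peak and 4 had a pan-NB peak. COX7CL, COX7AL2 and ND-B14.5AL had both, ND-49L had a medulla NB peak alone and ND-20L a pan-NB peak alone. The shares (23.5% in each list) stood beside 29.2% in the medulla NB list and 27.1% in the pan-NB list for the 48 respiratory chain genes without that suffix. Over all protein-coding genes they were 23.1% and 26.7% in the same order. A gene and its duplicate were not always bound together: ND-B14.5A lay 25674 bp from the nearest peak of either list.

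The large mitoribosomal subunit had 8 genes bound in both lists. mRpL30, mRpL17 and mRpL53 had the highest percentiles among them. mRpL30 had a peak with the same ends in both lists, from 4646522 to 4647338 on the X chromosome (percentile 72.9 in the medulla NB list and 71.5 in the pan-NB list). It lay 532 bp from mRpL30 and nearest to HLH4C, which encodes a basic helix-loop-helix protein. The pan-NB list had a further peak on the other side of mRpL30, from 4648820 to 4649688 (percentile 19.3). mRpL17 likewise had a peak with the same ends in both lists, from 262568 to 264528 on 3L (percentile 65.8 in the medulla NB list and 66.5 in the pan-NB list), 250 bp from the gene and with its midpoint nearest to Tudor-SN. A second peak of the pan-NB list, from 266512 to 269816, lay on the other side of mRpL17. mRpL53 had 2 peaks in each list on 2R, of which that from 13952455 to 13954625 had the same ends in both. All 4 had midpoints in or nearest to AGO1, which encodes an Argonaute protein and overlaps mRpL53. The highest percentile at mRpL53 was 50.5 in the medulla NB list and 74.9 in the pan-NB list.

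The peaks of mRpL49, mRpL32, mRpL35, mRpL52 and mRpL13 ranked lower in at least 1 list. At mRpL49 the peaks ended at the same base 770 bp from the gene (percentile 53.0 in the medulla NB list and 46.2 in the pan-NB list). At mRpL35 a medulla NB peak from 22022950 to 22025064 on 3R covered the whole gene, at percentile 4.52, and a pan-NB peak from 22022908 to 22024141 covered part of it, at a score of 3.54 and rank 2561. Mitofilin, which shapes mitochondrial cristae, lay within 1 kb of both peaks, and Cchl, a lyase that attaches haem to cytochrome c, lay within 1 kb of the medulla NB peak. At mRpL52 the percentiles were 27.6 in the medulla NB list and 8.53 in the pan-NB list. At mRpL32 and mRpL13 the peaks of the lists did not overlap each other. For mRpL13 the medulla NB peak from 18858435 to 18860628 on 2L lay nearest to tup, a LIM-homeodomain gene, and had nearly the lowest score of its list, at percentile 0.605.

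Of the mRpL genes bound in 1 list alone, mRpL55 and mRpL10 had a medulla NB peak. The peak from 19094130 to 19095562 on 3R covered mRpL55 whole, had a score of 4.32 and rank 1592 (percentile 54.0) and also reached ATPsynD, a subunit gene of ATP synthase. The peak at mRpL10 was at percentile 28.9 and lay nearer to CG11617. The pan-NB list alone had peaks at 8 mRpL genes, of which mRpL41 (percentile 51.2), mRpL50 (44.2), mRpL33 (28.1) and mRpL2 (26.3) ranked highest. The peak at mRpL33 lay nearest to norpA and that at mRpL2 nearest to FoxK. The percentile given for mRpL41 is that of a 268 bp peak 449 bp from the gene and nearest to CG11808. The second peak at mRpL41, of 2019 bp from 15216682 to 15218700 on 2R, covered the gene and was at percentile 37.9. The peak at mRpL50 lay 808 bp away and within 1 kb of RpL18, which encodes a protein of the cytoplasmic ribosome. Examples of mRpL genes with no peak in either list are mRpL1, mRpL11, mRpL12 and mRpL14.

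In the small mitoribosomal subunit, mRpS14 and mRpS18A were bound in both lists. mRpS14, a homologue of a bacterial small subunit protein, had a peak with the same ends in both lists, from 19479593 to 19480635 on the X chromosome, with 646 bp on the gene. It was at percentile 55.9 in the medulla NB list and 52.8 in the pan-NB list. mRpS18A was covered whole by a medulla NB peak of 2083 bp (percentile 6.28) and in part by a pan-NB peak of 2540 bp (percentile 17.5), which lay nearest to CG31460. mRpS7 and mRpS10 had medulla NB peaks alone, at highest percentiles of 37.1 and 44.5. Both peaks at mRpS7 overlapped the gene on 2L, from 10385339 to 10386945 nearest to Cdk1, the mitotic kinase gene, and from 10387034 to 10389701 nearest to da, which encodes the E protein partner of proneural factors. The pan-NB list alone had peaks at 5 mRpS genes, with the highest percentiles at mRpS11 (36.8), mRpS6 (30.9), mRpS28 (23.8) and mRpS30 (20.6). Of these, the peak at mRpS6 lay nearest to Cip4 and that at mRpS30 nearest to Paf-AHalpha. The wide pan-NB peak at mRpS6, from 4357648 to 4364539 on 3L, overlapped a medulla NB peak further than 1 kb from mRpS6. It was the only such case among the 26 members bound in 1 list alone. Examples of unbound mRpS genes are mRpS16, mRpS17, mRpS18B and mRpS18C.

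Of the 23 members bound in both lists, 20 had overlapping peaks, 18 had peaks that shared at least 50% of the shorter one, and 6 had a peak with identical ends in both lists (COX5A, ND-B18, mRpL17, mRpL30, mRpL53 and mRpS14). These are 87%, 78.3% and 26.1% of the 23, against 93.8%, 87.2% and 19.2% of the 2294 protein-coding genes bound in both lists. The length covered within 1 kb of the gene was larger in the medulla NB list at 11 of these members, smaller at 8 and equal at 4. The median covered length was 1183 bp in the medulla NB list and 1171 bp in the pan-NB list. The largest gain in the medulla NB list was at ND-49, with 1938 bp against 225 bp in the pan-NB list, and the largest loss was at ND-15, with 2477 bp against 4351 bp.

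**Figure D3:**
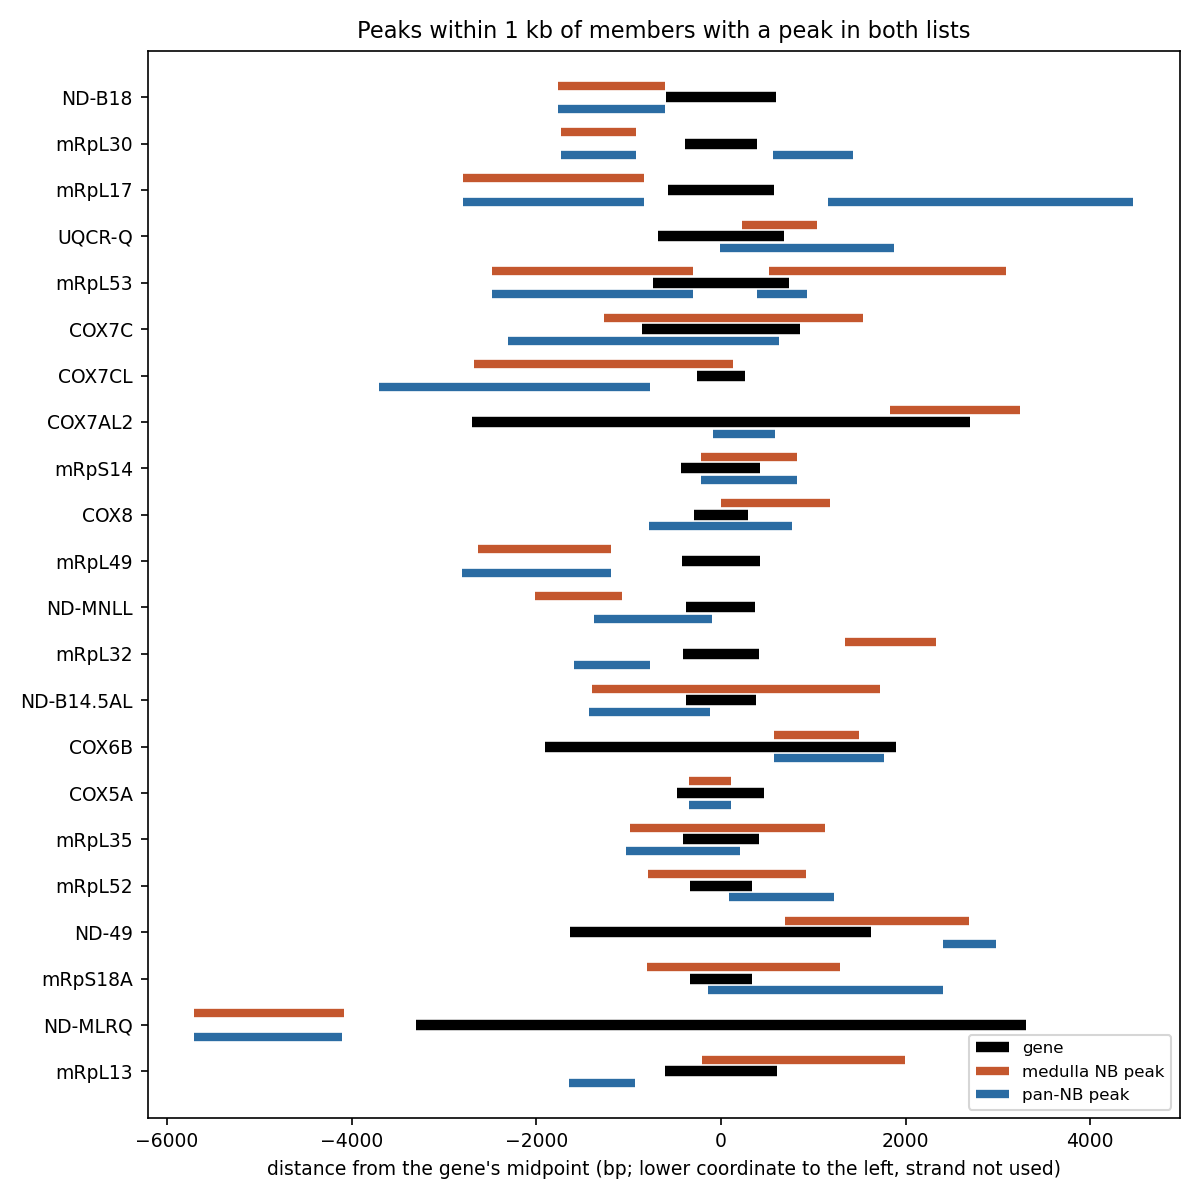
Position of medulla NB peaks (upper bars) and pan-NB peaks (lower bars) around 22 of the 23 members bound in both lists (black bars, 1 gene a row), as distance from the gene's midpoint (x axis, bp, lower coordinate to the left, strand not used); ND-15 is left out because of its length. At ND-B18, mRpL30, mRpL17, mRpL49 and ND-MLRQ the shared peak lies beside the gene, and at COX5A and mRpS14 on it.

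Peaks at members ranked low in their lists. The 34 medulla NB peaks within 1 kb of a member had a median percentile of 32.3, against 46.6 for the 2797 medulla NB peaks at any protein-coding gene. The 46 pan-NB peaks at members had a median percentile of 28.3, against 46.7 for the 3327 pan-NB peaks at any protein-coding gene. Low values were not particular to members. Per bound gene, the median of the highest percentile was 31.0 (medulla NB) and 28.6 (pan-NB) for members. For cytoplasmic ribosomal protein genes it was 36.3 and 22.9, and for all protein-coding genes 40.9 and 40.2, in the same order. Of peaks at members, 35.3% in the medulla NB list and 26.1% in the pan-NB list were among the higher-scoring 50%, whereas of peaks at any protein-coding gene 46.4% and 46.6% were. When lower-scoring peaks were left out at that limit, 13 members kept a medulla NB peak (9.42%), against 9.17% of all protein-coding genes, and 12 kept a pan-NB peak (8.7%), against 10.6%. Of these, 11 members had one in both (7.97%, against 6.82% of all protein-coding genes). When both lists were reduced to their top 1737 peaks, 13 members had a medulla NB peak (9.42%, against 9.17% of all protein-coding genes). A pan-NB peak was left at 5 members (3.62%, against 8.18%). The order of the lists thus turned round for members and for all protein-coding genes, in a setting that removes more peaks from the pan-NB list. Members bound in 1 list alone had lower percentiles than those bound in both. In the medulla NB list the medians were 23.0 for the 9 members of that list alone and 50.5 for the 23 in both, and in the pan-NB list they were 26.3 for 17 members and 46.2 for the 23. All protein-coding genes had the same order, with 23.0 and 50.5 in the medulla NB list and 23.8 and 53.6 in the pan-NB list.

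Many of the peaks lay at other genes too. Members stand close to their neighbours: 92 of 138 (66.7%) had 2 other protein-coding genes within 1 kb and 23 (16.7%) had 3 or more, against 45% and 15% of all protein-coding genes. Of the 35 pairs of a member and a medulla NB peak, 1 had no other protein-coding gene within 1 kb of the peak (2.86%, against 35.4% over all protein-coding genes), and of the 47 pairs with a pan-NB peak 3 had none (6.38%, against 36.4%). The midpoint of the peak lay inside the member in 16 pairs of the medulla NB list and 13 of the pan-NB list. When each peak was assigned to the gene nearest to its midpoint, 17 members kept a medulla NB peak (12.3%), against 14.4% of all protein-coding genes, and 19 kept a pan-NB peak (13.8%), against 16.8%. Genes at the same distance from a midpoint were all kept in these counts. In both lists 7 members were nearest, ties included (5.07%, against 9.81% of all protein-coding genes). They were COX5A, COX6B, COX7C, COX7AL2, ND-15, mRpL35 and mRpS14. Of these, COX5A, COX7AL2 and mRpL35 had no tie. COX6B, mRpS14 and ND-15 tied with another gene in both lists, and COX7C tied with oys in the pan-NB list. Whether the peaks bear on the member or on its neighbour was not tested.

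Over all protein-coding genes the share bound rose with gene length, while that of the members showed no such order. The median length of the members was 986 bp, against 2163 bp for all protein-coding genes. Among the 2613 protein-coding genes no longer than 986 bp, 11.8% had a medulla NB peak and 14.1% a pan-NB peak. The 35 shortest members, up to 743 bp, had a medulla NB peak in 5 cases (14.3%, against 9.74% of all protein-coding genes of that length) and a pan-NB peak in 9 cases (25.7%, against 10.8%). Above 743 and up to 986 bp, 9 of 34 members (26.5%, against 14.6%) had a medulla NB peak and 13 (38.2%, against 18.4%) had a pan-NB peak. Above 986 and up to 1380 bp, 9 of 34 members (26.5%, against 16.9%) had a medulla NB peak and 7 (20.6%, against 19.5%) had a pan-NB peak. Above 1380 bp, 9 of 35 members (25.7%, against 27.2%) had a medulla NB peak and 11 (31.4%, against 31.4%) had a pan-NB peak. Members thus had higher shares than all protein-coding genes in both classes up to 986 bp, in both lists. Above 986 and up to 1380 bp this held for the medulla NB list, while the pan-NB shares were close (20.6% against 19.5%). In the longest class the shares were close in both lists. Split by number of neighbours, members had higher shares in some classes and lower shares in others. With 0 other genes within 1 kb, 11.1% of 9 members and 18.1% of all protein-coding genes had a medulla NB peak. A pan-NB peak was found at 33.3% and 22.2% of them. With 1 other gene, 35.7% of 14 members and 18.8% of all protein-coding genes had a medulla NB peak, and 28.6% and 21.6% had a pan-NB peak. With 2 other genes within 1 kb, 23.9% of members and 25.1% of all protein-coding genes had a medulla NB peak, and 29.3% and 28.6% had a pan-NB peak. With 3 or more, 17.4% of members and 29.1% of all protein-coding genes had a medulla NB peak, and 26.1% and 34.1% had a pan-NB peak. The part that gene length and neighbouring genes play in these shares was not tested.

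**Figure D4:**
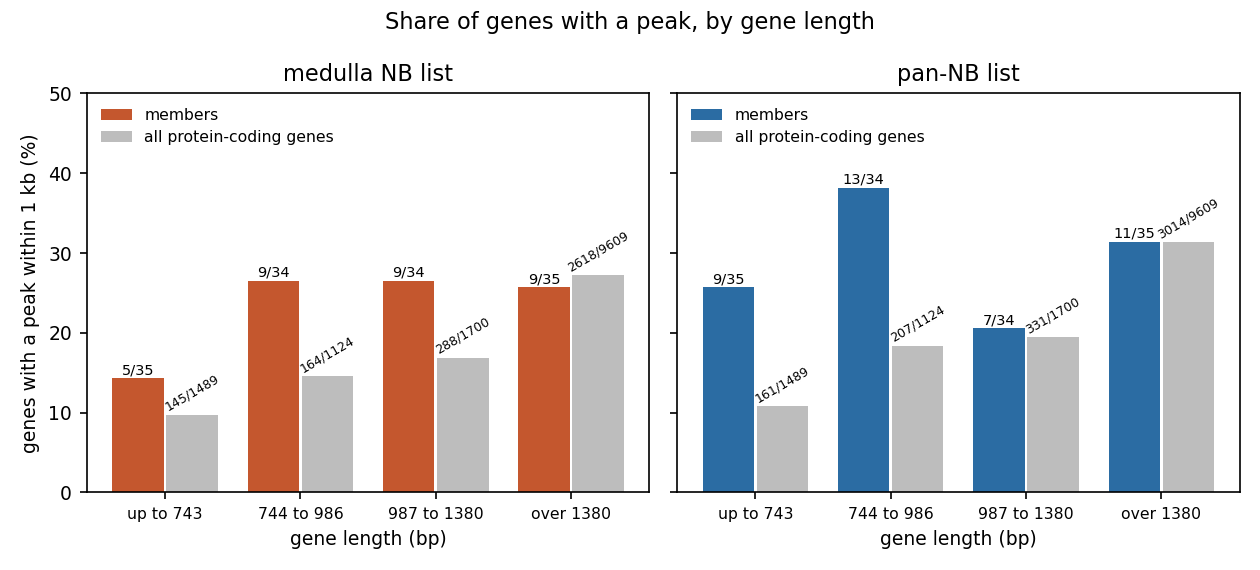
Share of genes with a peak within 1 kb (y axis, %) by gene length in 4 classes set at the quartiles of the members (x axis, bp), for members (coloured) and all protein-coding genes (grey), with bound over all genes printed above each bar; medulla NB list on the left and pan-NB list on the right. The share of all protein-coding genes grows with length, while that of the members shows no such order.

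Along the chromosome arms, 5 of 26 members on 2L (19.2%, against 18.2% of protein-coding genes there) had a medulla NB peak and 3 (11.5%, against 22.8%) had a pan-NB peak. On 2R, 5 of 26 members (19.2%, against 22.7%) had a medulla NB peak and 7 (26.9%, against 27.1%) had a pan-NB peak. On 3L, 6 of 33 members (18.2%, against 22.8%) had a medulla NB peak and 12 (36.4%, against 27%) had a pan-NB peak. On 3R, 9 of 30 members (30%, against 23.7%) had a medulla NB peak and 8 (26.7%, against 25.9%) had a pan-NB peak. On the X chromosome, 6 of 22 members (27.3%, against 28.1%) had a medulla NB peak and 9 (40.9%, against 31.3%) had a pan-NB peak. All 6 with a medulla NB peak were also bound in the pan-NB list, as were 468 of the 618 such protein-coding genes there. Of the members bound in the medulla NB list alone, 5 of 9 lay on 3R. They made 16.7% of the members there, against 7.86% of protein-coding genes on that arm. Of the members bound in the pan-NB list alone, 7 of 17 lay on 3L. They made 21.2% of the members there, against 10.3% of protein-coding genes on that arm.

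The 1 kb limit cut between near neighbours. The member just inside it was mRpL32 in the medulla NB list, with 933 bp to the peak, and mRpL50 in the pan-NB list, with 808 bp. The members just outside were ND-B14.7 in the medulla NB list, with 1178 bp, and mRpS31 in the pan-NB list, with 1137 bp. Of the 89 members bound in neither list, 36 had a peak of either list within 5 kb and 35 had none within 10 kb.

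Other nuclear genes of oxidative phosphorylation and mitochondrial gene expression, which the symbol rule does not cover, had these peaks. With the citric acid cycle, glycolysis and biogenesis regulators, these lists held 117 genes, of which 29 (24.8%) had a medulla NB peak and 49 (41.9%) a pan-NB peak, against 23.1% and 26.7% of all protein-coding genes. Both lists had a peak at 20 of them (16.5% of all protein-coding genes had both). Complex II, which links the citric acid cycle to the chain, had peaks in both lists at 2 of 6 genes, SdhA (percentile 61.3 in the medulla NB list and 63.6 in the pan-NB list) and SdhC (50.5 and 31.3 in the same order). Of 17 ATP synthase genes, 2 had a medulla NB peak and 5 a pan-NB peak, and none had both. Those in the pan-NB list were blw, ATPsynbeta, ATPsynC, ATPsyndelta and ATPsynepsilonL, and those in the medulla NB list were ATPsynD and ATPsynO. The cytochrome c genes Cyt-c-p and Cyt-c-d had a pan-NB peak alone, both at percentile 64.2. Of 12 assembly factors, 5 had a medulla NB peak and 4 a pan-NB peak. Of 8 mitochondrial translation factors, 3 had a peak in each list, and mEFG1, an elongation factor, had both. Of 12 genes that copy, transcribe or process mitochondrial DNA and RNA, 0 had a medulla NB peak and 5 had a pan-NB peak, among them mtSSB and mtDNA-helicase. Of 15 import genes, 4 had a peak in each list. For the cytoplasmic ribosome, 29 of 92 genes (31.5%) had a medulla NB peak and 44 (47.8%) had a pan-NB peak.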

How the data were processed

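Genomic DNA of larval brains was cut at methylated GATC sites, amplified and sequenced. Per the study's methods, the authors ran damidseq_pipeline with its defaults, averaged the profiles of 2 replicates and called peaks with find_peaks (min-quant 0.8, FDR below 0.01). The methods speak of calls per replicate, but the deposited lists are those of the averaged profiles. Neither versions nor a build is stated in the sources used here. Each deposited list gives peak positions, the score of the authors' peak caller (unit: score, of no stated scale) and an FDR. Averaging hides differences between replicates, and the 7 pan-NB peaks on the Y chromosome were left out. The methods give a target depth per sample, but the reads behind each peak are unknown. Because the replicates were averaged, no interval is given.

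Genes were taken from a RefSeq table (Release 6). The lists name no build, but peaks on 3R reach 32078821, beyond the end of that arm in the preceding release. Gene coordinates are not printed. The table gives no strand, and no sequence was used. A peak was assigned to every gene within 1 kb. Assignment was tested on simulated data. Python 3.11.15, numpy 2.4.6, pandas 2.3.3 and matplotlib 3.10.9 were used.

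The planned design had no test, since each condition is 1 averaged list, and shares of members stand beside those of all protein-coding genes. The members and lists were chosen with earlier results of these data known. Named were all members bound in both lists, up to 4 per complex and list of the others with the highest scores, all bound duplicates, and, of unbound members, up to 4 a complex in alphabetical order plus ND-75, ND-49, ND-42, UQCR-C1, COX4 and COX5A. The core subunits ND-51, ND-24 and ND-20, and UQCR-C2, ND-B14.5A, ND-B14.7 and mRpS31, were added after their values were seen. Of 139 names in the lists of other genes, 16 were not matched and are not analysed here. Alternatives were distances of 0 and 5 kb, an FDR below 0.001, only higher-scoring peaks (50%), equal numbers of peaks, joining of peaks closer than 500 bp, the nearest gene alone, stricter overlap and shorter genes as background.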

Additional observations from a re-analysis of the deposited data

How the results depend on the processing

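With peaks that overlap the gene itself, 26 members had a pan-NB peak (18.8%, against 20.7% of all protein-coding genes) and 13 had both (9.42%, against 12.1%). With 5 kb, 63 members had a medulla NB peak, 70 a pan-NB peak, 48 both, 15 a medulla NB peak alone and 53 neither. Shares in the medulla NB list, the pan-NB list and both were 45.7%, 50.7% and 34.8%, against 37.6%, 43.0% and 29.6% of all protein-coding genes. With an FDR below 0.001, 12 members had both (8.7%, against 10.7%), and the shares in the medulla NB list were 15.9%, against 15.1%. With only the higher-scoring 50% of peaks the counts were 13 for the medulla NB list, 12 for the pan-NB list, 11 for both, 2 for the medulla NB list alone and 1 for the pan-NB list alone, against 9.17% and 10.6% of all protein-coding genes. Here the 11 in both are 7.97%, against 6.82%. With 1737 peaks in each list the counts in the same order were 13, 5, 5, 8 and 0, against 9.17% and 8.18%. The 5 in both are 3.62%, against 5.75%. With the nearest gene alone, ties kept, the counts were 17, 19 and 7 for the medulla NB list, the pan-NB list and both. Here 7 is 5.07%, against 9.81%. Protein-coding genes no longer than the median member had 11.8% in the medulla NB list and 14.1% in the pan-NB list. Joining of close peaks changed no count of members, and 20 of the members in both lists had peaks that overlapped by 1 bp, 18 by 50%. All other counts lay within 1.5 times those of the 1 kb setting. The fall with fewer peaks follows from the construction of these settings, and the cause of the other shifts was not tested.

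No paired analysis was possible because the authors averaged both replicates into 1 list per condition, and for the same reason leaving out a replicate was not done. The alternative that needed annotated start sites was not run. Depth behind each peak is unknown, so a gene without a peak is not shown to be unbound.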

Other observations

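Glycolysis converts glucose to pyruvate in the cytosol. Of 13 genes of this pathway, 7 (53.8%) had a medulla NB peak and 11 (84.6%) had a pan-NB peak, against 27.7% and 26.2% of the 65 respiratory chain members and 23.1% and 26.7% of all protein-coding genes. Pgk, which encodes phosphoglycerate kinase, had a peak at percentile 85.1 in the medulla NB list and 99.1 in the pan-NB list. PyK, pyruvate kinase, was at percentiles 67.2 and 73.5 in the same order of lists, Eno, enolase, at 61.0 and 55.3, and Hex-A, a hexokinase, at 53.6 and 52.4. Gapdh1, Pfk and Pglym78 also had a peak in both lists. Ald1, Gapdh2, Hex-C and the lactate dehydrogenase gene Ldh had a pan-NB peak alone, and Pgi and Tpi had none. The peak at Hex-C is the 2019 bp peak that covered mRpL41, and its midpoint lay nearest to mRpL41. The median length of these genes is 3590 bp, against 1089 bp for the respiratory chain members. Of all protein-coding genes above 1380 bp, 27.2% had a medulla NB peak and 31.4% a pan-NB peak. The difference carries no test.

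Of 14 genes of the citric acid cycle, 4 had a medulla NB peak and 6 a pan-NB peak, and Scsalpha1, kdn and Idh3a had both. Of 6 regulators of mitochondrial biogenesis, 1 had a medulla NB peak and 4 had a pan-NB peak. ewg, the fly homologue of nuclear respiratory factor NRF-1 of mammals, had a pan-NB peak alone at percentile 88.2. srl, the fly homologue of the PGC-1 coactivators, had a peak in both lists at low percentiles, 14.4 in the medulla NB list and 29.7 in the pan-NB list. foxo and Myc had a pan-NB peak alone, and clu and Ets97D had none. The median length was 3402.5 bp for the citric acid cycle genes and 9452 bp for the regulators. Of all protein-coding genes, 23.1% had a medulla NB peak and 26.7% a pan-NB peak. Of those above 1380 bp, 27.2% and 31.4% had one in the same order of lists. The part that gene length plays in these counts was not tested.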
